A study of Homo sapiens with 18 samples.

Results

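The IFIT and IFITM genes make up a pair of interferon-induced antiviral families, and 7 of them were followed here across human multiple myeloma cell lines. The members were taken by symbol: IFIT1, IFIT2, IFIT3 and IFIT5, and IFITM1, IFITM2 and IFITM3. All 7 were found among the 28395 genes of the deposited count table. In GRCh38.p14 the IFIT genes lie in 1 cluster on chromosome 10, with IFIT2 at chr10:89302046-89309271, IFIT3 at chr10:89327997-89340968, IFIT1 at chr10:89392623-89406487 and IFIT5 at chr10:89414568-89420997, all on the plus strand. The IFITM genes lie within 13 kb on chromosome 11, with IFITM2 at chr11:307816-309395 and IFITM1 at chr11:314040-315272 on the plus strand and IFITM3 at chr11:319676-320860 on the minus strand. The libraries came from 3 lines, H929, MM1S and OPM2, and numbered 18, with 2 in each of 9 groups. Each line had cells with an inducible CRISPR-Cas9 knockout of IKZF1 and cells with an empty vector as their control, and OPM2 also had cells with an inducible knockout of IKZF3. The other groups were OPM2 cells given lenalidomide and untreated OPM2 cells. The treatment protocol names doxycycline at 1 µg/mL, which switches on the guide RNA, or lenalidomide at 10 µM, with 72 h of culture. It does not list them by library: empty vector and knockout cells were taken to have had doxycycline, and the other groups none. Live cells were sorted by light scatter before RNA extraction. Headers of the count table give each knockout library of a group a code of its own, in the OPM2 IKZF1 group with a different letter too. No source used here says what the codes mean or whether libraries of a group came from separate cultures, clones or guides, so p-values measure the spread between these libraries, which may be technical.

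IKZF1 (Ikaros) and IKZF3 (Aiolos) are zinc finger transcription factors of lymphoid cells, and lenalidomide directs both proteins to degradation through the ubiquitin ligase adaptor cereblon. Type I and type III interferons act through JAK kinases on transcription factors, STAT2 and IRF9 among them, that bind the interferon-stimulated response element (ISRE) in the promoters of antiviral genes. IFIT proteins are cytoplasmic proteins built of tetratricopeptide repeats. IFIT1 binds viral RNA whose cap lacks ribose methylation and blocks its translation, IFIT2 and IFIT3 form complexes with it, and IFIT5 binds RNA with a 5′ triphosphate. IFITM proteins are small membrane proteins that block the fusion of enveloped viruses with cell membranes: IFITM1 sits mainly at the cell surface, and IFITM2 and IFITM3 mainly in endosomes and lysosomes. Each comparison asked how far these transcripts differed from their controls after loss of either factor or treatment with the drug.

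Libraries held 11800827 to 24183867 counts. Levels are in CPM, the count divided by the effective library size and scaled up, as mean ± SD of 2 libraries. Fold changes are log2 values ± SE. Called means an adjusted p (Benjamini-Hochberg, edgeR's quasi-likelihood test, over 14522 genes) under 0.05. All 7 members passed the filter on low counts, IFITM3 only through its counts in the H929 knockout libraries. The OPM2 empty vector libraries stood apart from each other: 10.2% of 11456 genes differed by more than 2-fold between them, against 0.256% to 3.63% in the other 8 groups. Mean mRNA of each targeted gene was above that of its controls, and counts over a whole gene do not measure loss of the protein, so they do not check the labels: IKZF1 measured 156 ± 45.1 CPM in H929 knockout libraries against 124 ± 5.45 in controls, 323 ± 14.2 against 182 ± 4.5 in MM1S and 219 ± 8.62 against 141 ± 66.3 in OPM2. IKZF3 measured 68.0 ± 1.92 CPM in its own knockout against 47.2 ± 4.45. All 8 plasma cell markers had counts in every group, and summed levels of 4 myeloid and of 4 fibroblast markers stayed at or below 5.13 CPM. The 5 T and NK cell markers summed to 42.5 to 44.8 CPM in H929 empty vector libraries and 30.4 to 34.3 in H929 knockout libraries, against at most 4.75 in the other groups. Most of that was CD3E, a T cell receptor complex chain, with means of 39.7 and 29.2 CPM in the H929 groups, while CD3D of the same complex had 0.113 and 0. The part of these genes in the members' results was not tested.

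RefSeq promoter entries (GRCh38.p14, 250 bases before to 50 after a start) were held for 5 of the 7 members, and the stretches with an ISRE are printed first because all of these members share it. IFIT3 has an entry for each of a pair of starts. The motif searched was GAAA, any 2 bases and GAAA again, on either strand, so that it reads TTTC, any 2 bases and TTTC where it lies on the other strand. Capitals mark the matches, and each line runs 5′ to 3′ on the gene's own strand.
IFIT3, upstream start: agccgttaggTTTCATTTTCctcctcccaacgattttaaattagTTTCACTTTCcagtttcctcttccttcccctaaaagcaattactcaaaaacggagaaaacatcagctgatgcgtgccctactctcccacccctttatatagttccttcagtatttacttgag
IFIT3, downstream start: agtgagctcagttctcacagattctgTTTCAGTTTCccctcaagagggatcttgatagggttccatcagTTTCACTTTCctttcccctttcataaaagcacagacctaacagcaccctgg
IFIT1: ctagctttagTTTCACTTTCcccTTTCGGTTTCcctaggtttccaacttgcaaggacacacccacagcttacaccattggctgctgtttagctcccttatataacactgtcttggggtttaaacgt
IFIT5: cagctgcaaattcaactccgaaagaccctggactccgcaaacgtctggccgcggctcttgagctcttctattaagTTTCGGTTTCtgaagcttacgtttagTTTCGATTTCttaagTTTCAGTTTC
IFITM1: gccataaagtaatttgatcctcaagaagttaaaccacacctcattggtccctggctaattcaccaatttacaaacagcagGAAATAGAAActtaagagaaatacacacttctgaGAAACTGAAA
IFITM3: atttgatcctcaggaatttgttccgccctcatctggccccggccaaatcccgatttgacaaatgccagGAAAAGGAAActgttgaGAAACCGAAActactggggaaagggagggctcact
These stretches are, in the same order, chr10:89327831-89327996, chr10:89332409-89332528, chr10:89392497-89392622, chr10:89414448-89414573, chr11:313920-314043 and chr11:320861-320980. The last is on the minus strand and the others on the plus strand. The IFIT5 line includes 6 bases and the IFITM1 line 4 bases after the start.

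An ISRE match was present in 5 of 5 members, with 2 matches in each promoter except that of IFIT5, which had 3. Of all 35116 promoter entries of this length, 3.57% held a match. Among 18 other interferon-induced antiviral effectors with an entry, 12 had a match. Among the genes that flank the clusters, 1 of 12 with an entry near the IFIT genes had a match, ACTA2, and 0 of 7 near the IFITM genes. The paralogs IFIT1B and IFITM5, which are no members, had none. The matches of IFIT1 lay at -116 and -103 from the start, those of IFITM3 at -52 and -35, and the match of IFIT5 nearest to its start spanned that start. A GAS (interferon gamma-activated site) motif, read here as TTCNNNGAA, was found in IFITM1 alone among the members, against 7.66% of all entries. It lay at -12 to -4 and shared bases with an ISRE match. The letters TGGGAA, searched on either strand as an Ikaros motif, were found in 0 of 5 members and in 24% of all entries. The shorter form GGGAA was not searched. It stands, as GGGAA or as TTCCC, in the printed stretches of IFIT1, IFIT3 and IFITM3, so the search does not show that members lack it. A match describes these letters only.

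**Figure D1:**
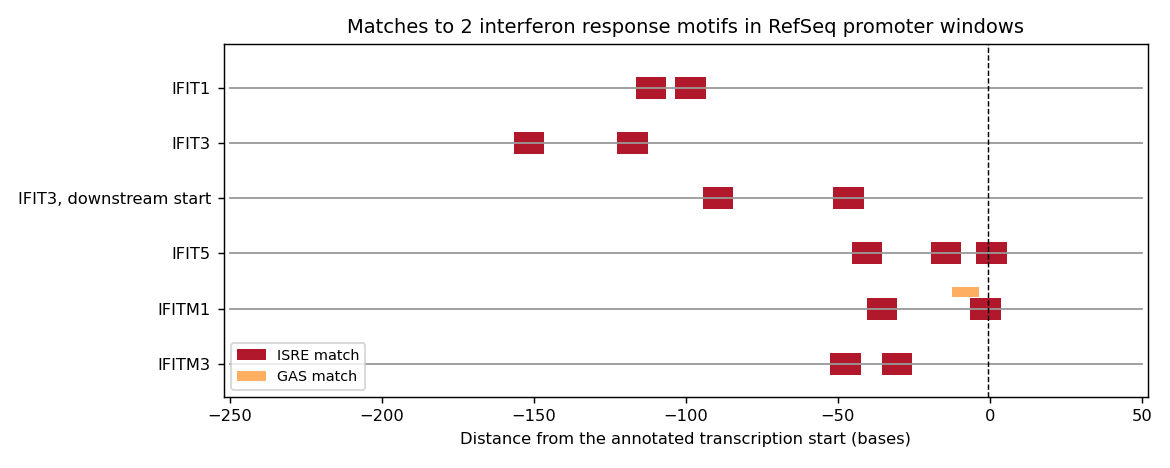
Positions of ISRE (red) and GAS (orange) matches in 6 RefSeq promoter windows of 5 members, in bases from the annotated start (dashed line). Each window holds 2 or 3 ISRE matches, and the IFIT5 and IFITM1 windows have 1 that spans the start.

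Empty vector cells of the 3 lines differed in which members they expressed. IFIT1 measured 7.02 and 5.83 CPM in the H929 empty vector libraries, 1.17 and 1.25 in MM1S, and 0 and 0.0456 in OPM2. IFIT3 measured 8.66 and 8.57 CPM in H929, 4.17 and 5.54 in MM1S, and 0.882 and 1.19 in OPM2. IFITM1 measured 4.59 and 5.22 CPM in H929, 1.53 and 1.19 in MM1S, and 0.221 and 0.0913 (3 and 2 counts) in OPM2. For these 3 members the order was H929, then MM1S, then OPM2. Their libraries did not overlap between lines, for which no share over all genes is given. IFIT5 had another order, with 15.6 and 14.5 CPM in MM1S, 1.36 and 1.88 in H929, and 0.221 and 0.548 in OPM2. IFITM2 had 30 counts in MM1S empty vector cells, 1 in H929 and 0 in OPM2. IFIT2 had 58 counts in H929, 2 in MM1S and 6 in OPM2, and IFITM3 had 1, 0 and 0.

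Between H929 and MM1S, 6 of 7 members were called (63.2% of all genes were), 4 higher in H929 and IFIT5 and IFITM2 lower. IFIT5 was lower in H929 by a log2 fold change of -3.21 ± 0.349 (adjusted p = 1.56e-06). IFITM1 was higher by 1.84 ± 0.416 (adjusted p = 0.00134) and IFIT1 by 2.40 ± 0.686 (adjusted p = 0.00688). Against OPM2, 5 of 7 were called higher in H929 (64.7% of all genes called in either direction, 4706 of 14522 higher). In MM1S 5 of 7 were too (67.6% called in either direction, 4772 higher). No member was called lower in either, so as calls in either direction both are near the share over all genes. IFIT5 was higher in MM1S than in OPM2 by 5.15 ± 0.438 (adjusted p = 1e-07), and IFITM1 was higher in H929 than in OPM2 by 5.04 ± 0.628 (adjusted p = 6.19e-06). With 1 library left out at a time, the 3 counts ranged over 2 to 6, 2 to 5 and 1 to 5. IFIT3 in H929 against MM1S, at 0.83 ± 0.335 (adjusted p = 0.0419), was lost in 13 of 18 such fits.

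**Figure D2:**
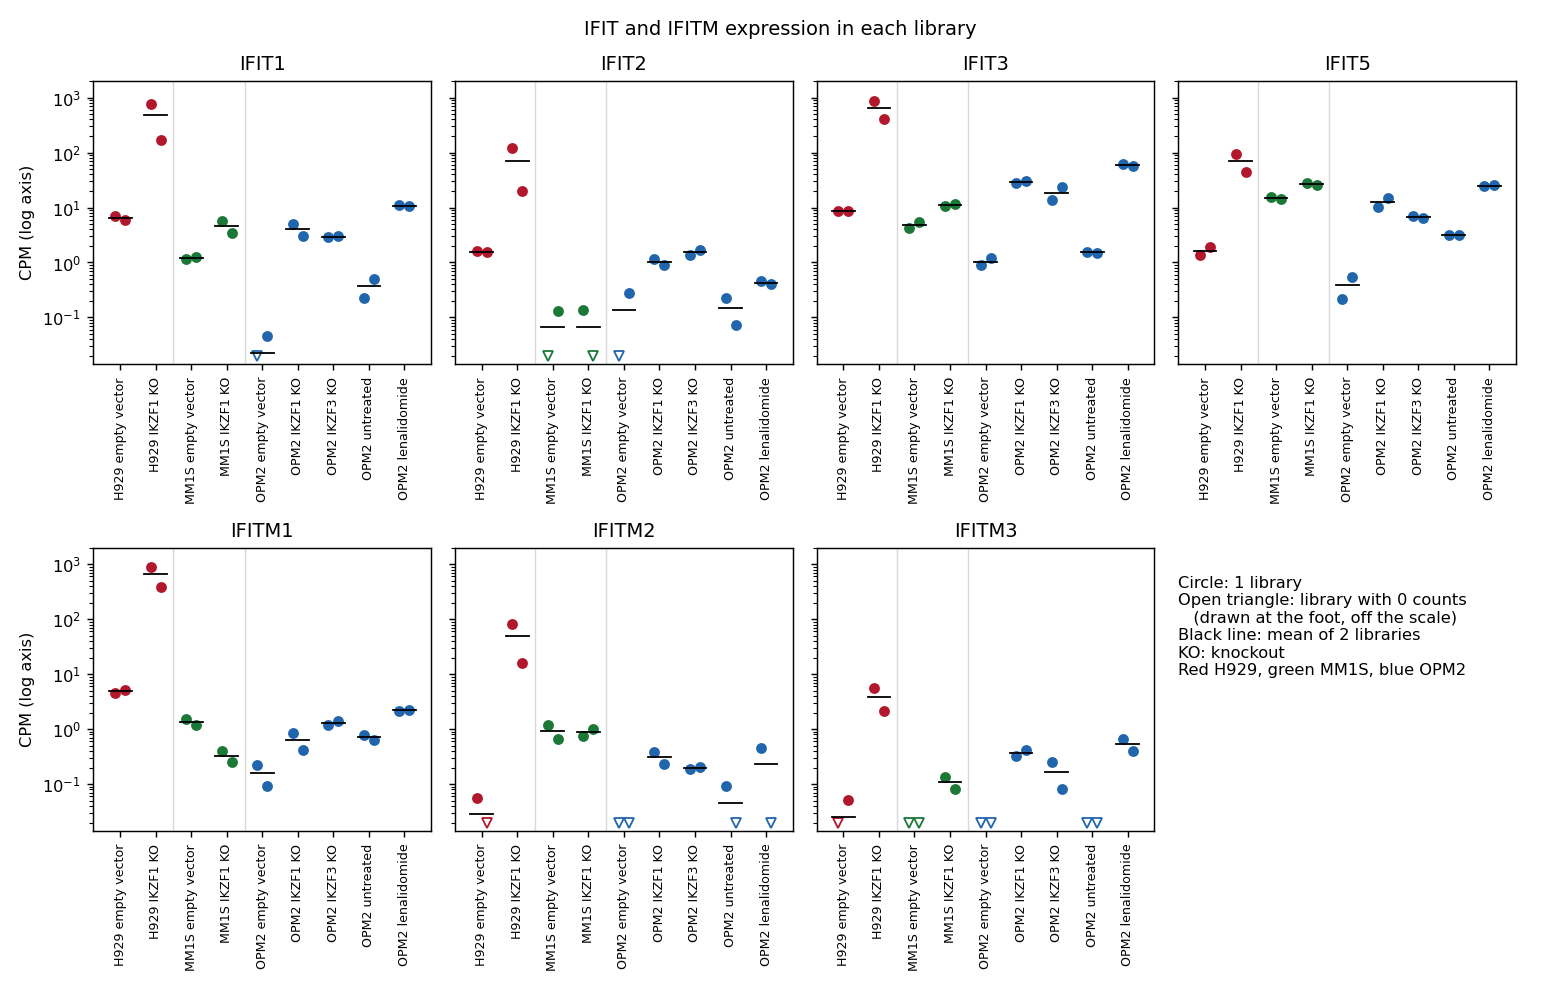
CPM of each member in all 18 libraries on a log axis, with circles for libraries, lines for means of 2, and open triangles for libraries with 0 counts. In every panel the highest library is H929 knockout library a, and IFITM3 is at 0 in 7 of 18 libraries.

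Every member rose in H929 when IKZF1 was knocked out. The knockout libraries, called a and b, had 777 and 169 CPM of IFIT1 against 7.02 and 5.83 in the empty vector libraries. IFIT3 measured 865 and 407 CPM against 8.66 and 8.57. Both knockout libraries lay far above both controls for these genes. IFIT2 measured 123 and 20.2 CPM against 1.59 and 1.52, and IFIT5 measured 95.3 and 45.0 CPM against 1.36 and 1.88. IFITM1, the cell surface member of its family, measured 910 and 394 CPM against 4.59 and 5.22. It too was far above its controls in both libraries. IFITM2 had 1045 and 209 counts in the knockout against 1 and 0, a 1820-fold ratio (95% counting interval 326 to 71900). IFITM3 had 72 and 28 counts against 0 and 1, a 145-fold ratio (25.4 to 5790). No member had overlapping libraries between the groups. With 2 libraries a side genes can easily be apart in this way, and the share over all genes is not given here.

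The log2 fold changes were 6.20 ± 0.558 for IFIT1 (adjusted p = 3.58e-06), 5.52 ± 0.675 for IFIT2 (7.13e-05), 6.21 ± 0.341 for IFIT3 (2.76e-08) and 5.42 ± 0.351 for IFIT5 (1.32e-07). IFITM1 rose by 7.05 ± 0.352 (adjusted p = 1e-08), and IFITM2 and IFITM3 were called with adjusted p of 2.03e-05 and 0.000204. That made 7 of 7 called, all higher, where 10.5% of all genes were called and 5.94% called higher. IFITM3 entered the test only through these knockout libraries and so had to differ, which leaves 6 of 6 without it. The median over the members was 6.21, against -0.03 over all genes tested. Without knockout library a, all 7 were still called, with log2 fold changes from 3.70 for IFIT2 to 8.88 for IFITM2, and IFIT1 at 4.72. Without library b they ran from 5.87 for IFIT5 to 11.2 for IFITM2. Fitted with the H929 groups alone, IFIT2 was not called (adjusted p = 0.0703).

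The knockout libraries of H929 differed from each other for every member, library a being higher each time. The ratio of a to b was 6.09 for IFIT2 (95% counting interval 5.34 to 6.97), 5.06 for IFITM2 (4.36 to 5.90) and 4.60 for IFIT1 (4.39 to 4.82). It was 2.6 for IFITM3 (1.66 to 4.18), 2.31 for IFITM1 (2.24 to 2.39), 2.13 for IFIT3 (2.06 to 2.20) and 2.12 for IFIT5 (1.92 to 2.34). The highest of these ratios were those of IFIT2, IFITM2 and IFIT1. The intervals cover counting error only, and with 1 library on each side the differences between members' ratios were not tested. Of 12122 genes with a mean of at least 1 CPM in this group, 1.83% were more than 2-fold higher in a. Interferon ligand genes followed the same order of libraries: the 21 genes listed summed to 116 counts in library a, from 12 genes, and to 17 counts in b, from 5 genes. In the other 16 libraries they summed to 0 to 6 counts. In library a most of these counts were of the type III interferon genes IFNL3 (48 counts), IFNL2 (24) and IFNL1 (21), which share sequence, and IFNB1 had 10. None of the 21 passed the filter on low counts, and their part in the members' levels was not tested.

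In MM1S IKZF1 knockout cells IFIT3 and IFIT5 rose by small amounts, and the other members were not called. IFIT3 measured 10.8 and 11.6 CPM in the knockout libraries against 4.17 and 5.54 in the controls, a log2 fold change of 1.21 ± 0.337 (adjusted p = 0.0147). IFIT5 measured 28.3 and 26.2 CPM against 15.6 and 14.5, a change of 0.85 ± 0.279 (adjusted p = 0.033). The libraries of both genes were apart between the groups, again without a share over all genes to set beside it. IFIT1 measured 5.64 and 3.39 CPM against 1.17 and 1.25, with a fold change of 1.91 ± 0.733 that was not called (adjusted p = 0.0657). IFITM1 measured 0.407 and 0.248 CPM in the knockout against 1.53 and 1.19, with a fold change of -2.0 ± 0.719 (adjusted p = 0.0501). That is 9 counts against 44, below both controls and just outside the threshold. IFITM2, with 23 counts against 30, had a fold change of -0.11 ± 0.982, and IFIT2 had 2 counts in each group. IFITM3 had 3 counts against 0.

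The MM1S count was thus 2 of 7 called, both higher, against 28.3% of all genes called and 15.6% called higher, a share near the background. Both calls were lost without either knockout library or without empty vector replicate 1, with adjusted p of 0.0514, 0.0742 and 0.125 for IFIT3 and of 0.138, 0.095 and 0.116 for IFIT5. IFIT5 was also lost without empty vector replicate 2 (0.166), and IFIT3 without OPM2 empty vector replicate 1 or 2 (0.0827 and 0.0872).

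**Figure D3:**
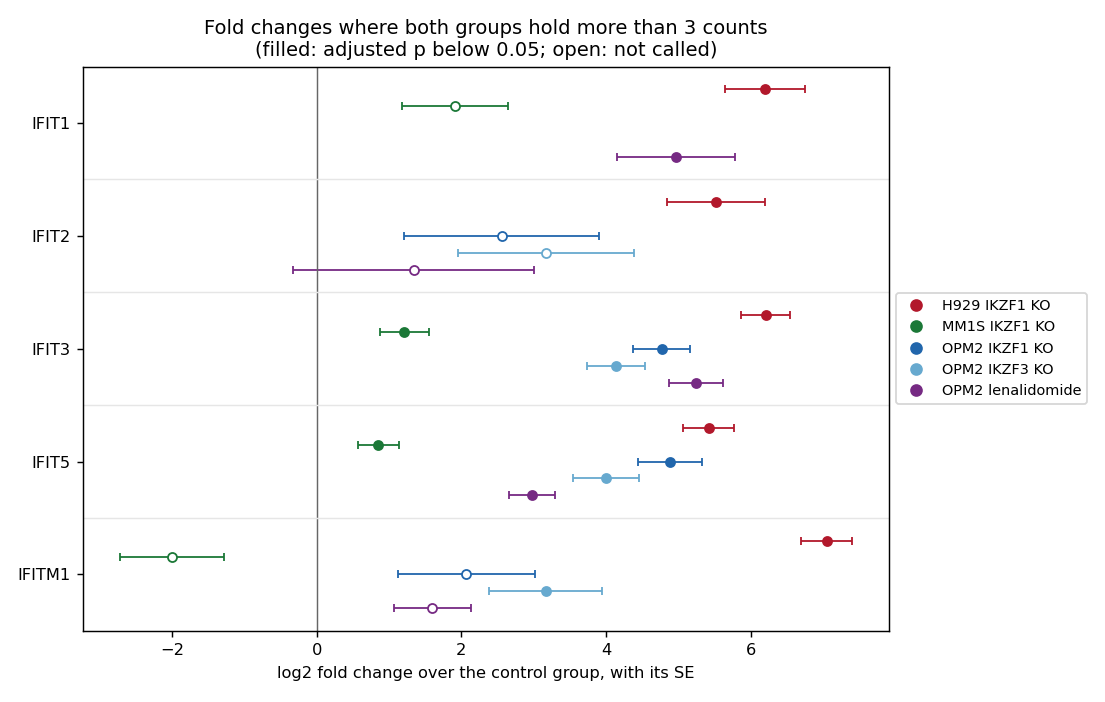
Log2 fold changes with SE for the 4 IFIT members and IFITM1 in the 5 main comparisons, where both groups held more than 3 counts. Filled points were called. H929 points lie between 5.42 and 7.05, and the MM1S point of IFITM1 lies at -2.0 while the other points of IFITM1 are above 0.

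In OPM2 IKZF1 knockout cells IFIT1, IFIT3, IFIT5 and IFITM3 rose over the empty vector. IFIT3 measured 28.5 and 29.9 CPM in the knockout libraries against 0.882 and 1.19, a log2 fold change of 4.77 ± 0.395 (adjusted p = 5.32e-06). IFIT5 measured 10.1 and 15.1 CPM against 0.221 and 0.548, a change of 4.89 ± 0.443 (adjusted p = 1.05e-05). IFIT1 had 77 and 51 counts against 0 and 1, a 141-fold ratio (95% counting interval 24.8 to 5590; adjusted p = 0.00292). IFITM3 had 5 and 7 counts against 0 and 0, which makes it at least 4.39-fold higher against a floor of 3 counts over the group (adjusted p = 0.0195), a call lost without any 1 of these 4 libraries (adjusted p 0.0503 to 0.0717). IFITM1 measured 0.847 and 0.412 CPM against 0.221 and 0.0913, with 2.07 ± 0.945 (adjusted p = 0.0992), and IFIT2 had 33 counts against 6 (adjusted p = 0.152). IFITM2 had 10 counts against 0. The count was 4 of 7 called, all higher, against 36.3% of all genes called and 16.2% called higher.

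Knockout of IKZF3 in OPM2 gave much the same picture, with IFITM1 called in place of IFITM3. IFIT3 measured 13.7 and 23.6 CPM, a change of 4.14 ± 0.397 over the same empty vector libraries (adjusted p = 1.99e-05). IFIT5 measured 7.12 and 6.52 CPM, a change of 4.0 ± 0.461 (adjusted p = 7.5e-05). IFIT1 had 46 and 73 counts, a 105-fold ratio over the empty vector (18.4 to 4160; adjusted p = 0.00496). IFITM1 measured 1.2 and 1.43 CPM, a change of 3.17 ± 0.782 (adjusted p = 0.00687) that rests on 3 and 2 counts in the empty vector libraries. IFIT2, at 1.39 and 1.71 CPM, had its highest level in OPM2 here, with 3.17 ± 1.22 (adjusted p = 0.0533). IFITM3 had 6 counts and IFITM2 8, against 0 for both. Here too 4 of 7 were called, all higher, against 36.9% of all genes called and 16.2% called higher. Both knockouts share the empty vector libraries. Set against each other, they had 0 of 7 members called (2.6% of all genes called; 0 also by DESeq2 and limma-voom), while 2 of 7 had an unadjusted p under 0.05. Without a filter on low counts 2 were called, and with 1 library left out at a time 0 to 1. The nearest was IFIT5, higher in the IKZF1 knockout by 0.89 ± 0.296 (unadjusted p = 0.0091, adjusted p = 0.158).

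The empty vector libraries bear on these sizes. IFIT5 was lower in empty vector than in untreated OPM2 cells, 0.221 and 0.548 against 3.13 and 3.22 CPM, by -2.90 ± 0.507 (adjusted p = 0.00148). It was the only 1 of 7 members called there, against 35.4% of all genes. IFITM1 measured 0.221 and 0.0913 against 0.782 and 0.644 CPM, with -2.30 ± 0.898 (adjusted p = 0.0588). With untreated cells as the control, 3 members stayed called in the IKZF1 knockout (7.78% of all genes called): IFIT3 at 4.24 ± 0.373, IFIT1 at 3.53 ± 0.917 and IFIT5 at 1.99 ± 0.324. In the IKZF3 knockout IFIT3 alone did, at 3.61 ± 0.375 (8.3% of all genes called). IFITM1 then stood at -0.22 ± 0.666 in the IKZF1 knockout (adjusted p = 0.91) and at 0.87 ± 0.55 in the IKZF3 knockout. IFIT3 thus differed little between the controls, while IFIT5 measured 1.99 in place of 4.89 in the IKZF1 knockout and 1.1 in place of 4.0 in the IKZF3 knockout. Untreated cells are not labelled as having the vector or doxycycline, so the vector, doxycycline and these 2 libraries cannot be told apart. Fitted with these 2 groups alone, IFIT5 had an adjusted p of 0.218. Without empty vector replicate 1 or replicate 2, IFIT1 was lost in the IKZF1 knockout (adjusted p = 0.19 or 0.169) and in the IKZF3 knockout (0.24 or 0.222), as was IFITM1 in the IKZF3 knockout (0.186 or 0.28).

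Lenalidomide in OPM2 was followed by a rise of IFIT1, IFIT3, IFIT5 and IFITM3 over untreated cells. IFIT3 measured 61.2 and 56.8 CPM against 1.56 and 1.5, a change of 5.25 ± 0.374 (adjusted p = 6.81e-07). IFIT1 measured 10.9 and 10.8 CPM against 0.230 and 0.501, a change of 4.97 ± 0.82 (adjusted p = 0.00112). IFIT5 measured 24.2 and 25.9 CPM against 3.13 and 3.22, a change of 2.98 ± 0.321 (adjusted p = 2.88e-05). The treated libraries of these 3 genes were close to each other and far above the controls. IFITM3 had 10 and 5 counts against 0 and 0, at least 6.46-fold higher (adjusted p = 0.0248), a call lost without any 1 of the treated or untreated libraries (adjusted p 0.0575 to 0.172). IFITM1 measured 2.16 and 2.27 CPM against 0.782 and 0.644, with 1.60 ± 0.534 (adjusted p = 0.0761). IFIT2 had 12 counts against 6, and IFITM2 had 7 and 0 counts against 2 and 0. Of the 7 members 4 were called, all higher, against 10.4% of all genes called and 5.78% called higher.

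Within OPM2 the lenalidomide libraries had the highest IFIT1, IFIT3, IFIT5 and IFITM1 of the 5 groups. For the difference between the drug's effect over untreated cells and a knockout's effect over empty vector, edgeR called 0 of 7 members with IKZF1 (0.282% of all genes called) and 0 of 7 with IKZF3 (6.62% called). DESeq2 called 1 and 0, and 1 and 0 members had an unadjusted p under 0.05. The nearest was IFIT5, whose effect was smaller under lenalidomide than in the IKZF1 knockout by -1.91 ± 0.602 (unadjusted p = 0.00652, adjusted p = 0.0892). That difference rests on 2 control groups that themselves differed in IFIT5. When the drug-treated libraries were set directly against the knockout libraries, a comparison added after the values were seen, its sign turned: IFIT5 was 0.99 ± 0.282 higher under lenalidomide than in the IKZF1 knockout (adjusted p = 0.119). By edgeR, the tool run here, 0 of 7 were called (0.978% of all genes called), and 4 of 7 had an unadjusted p under 0.05. Against the IKZF3 knockout 2 of 7 were called (5.57% of all genes called), IFIT5 higher by 1.88 ± 0.293 (adjusted p = 0.0018) and IFIT3 by 1.65 ± 0.285 (adjusted p = 0.00334). The lenalidomide cells are not labelled as having the vector or doxycycline. In these direct comparisons, drug against knockout therefore cannot be told apart from vector and doxycycline.

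**Figure D4:**
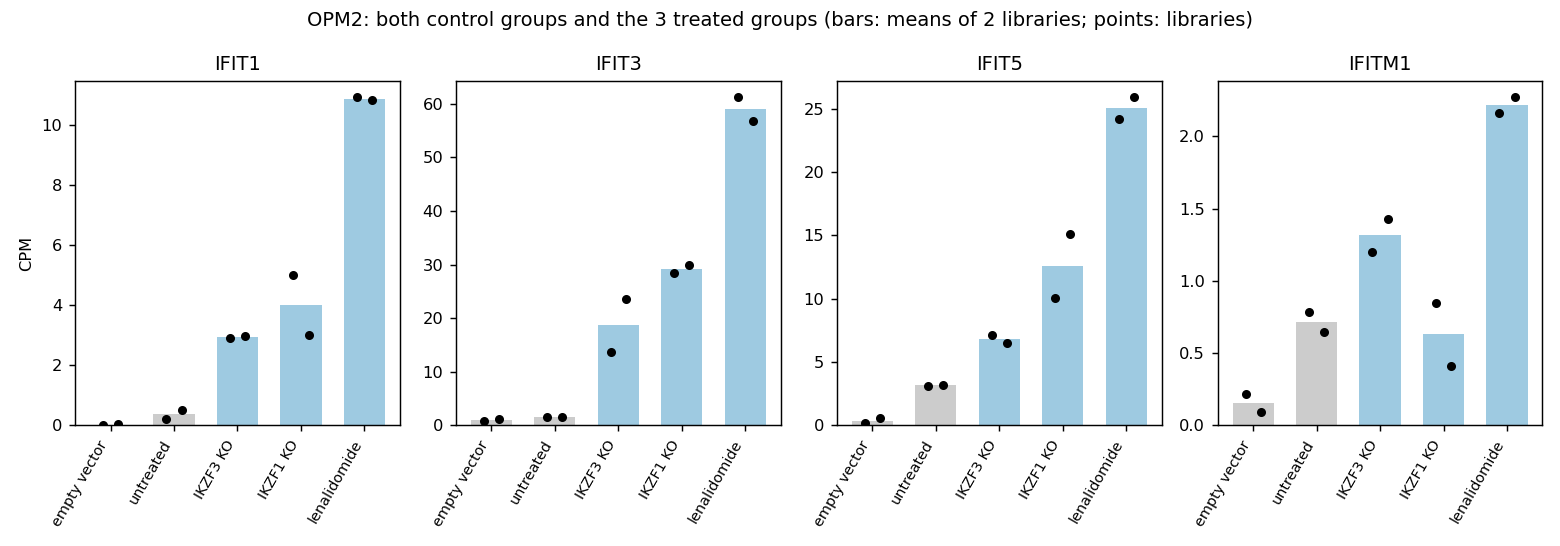
CPM of IFIT1, IFIT3, IFIT5 and IFITM1 in the 5 OPM2 groups on linear axes from 0, with bars for means of 2 libraries and points for libraries. Lenalidomide is highest in each panel, and the IFIT5 and IFITM1 panels show untreated libraries (grey) above empty vector libraries (grey).

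The response to IKZF1 loss differed between the lines by a test of the difference itself. Between H929 and MM1S it differed for 5 of 7 members (15.9% of all genes called), all larger in H929. The difference was 5.0 ± 0.459 for IFIT3 (adjusted p = 6.1e-06), 4.57 ± 0.444 for IFIT5 (9.13e-06) and 9.05 ± 0.758 for IFITM1 (2.48e-06). It was 4.29 ± 0.997 for IFIT1 (0.00853), and IFITM2 was also called (0.00091). Between MM1S and OPM2 it differed for 3 of 7 (20.8% of all genes called), all smaller in MM1S: IFIT3 by -3.56 ± 0.534 (adjusted p = 0.000566), IFIT5 by -4.03 ± 0.549 (0.000255) and IFITM1 by -4.07 ± 1.19 (0.0267). Set against untreated cells in OPM2, an alternative added after the values were seen, the difference was called for only IFIT3 of 7 (15.8% of all genes called), at -3.03 ± 0.512 (adjusted p = 0.00113). IFIT5 then stood at -1.14 ± 0.427 (adjusted p = 0.0875) and IFITM1 at -1.78 ± 1.01 (0.27). Between H929 and OPM2 only IFITM1 of 7 was called (12.7% of all genes called), larger in H929 by 4.98 ± 1.52 (adjusted p = 0.0451). With the empty vector as control, the IFITM1 differences from OPM2 rest on 5 counts in OPM2 empty vector cells. Against untreated OPM2 cells 3 of 7 were called (6.32% of all genes called), all larger in H929: IFITM1 by 7.28 ± 0.826 (adjusted p = 0.000139), IFIT5 by 3.43 ± 0.479 (0.000619) and IFIT3 by 1.97 ± 0.51 (0.033). With the empty vector as control, the IFITM1 call was lost in 16 of the 18 fits that left out 1 library, with an adjusted p of up to 0.604 without OPM2 empty vector replicate 1, and the IFITM1 difference between MM1S and OPM2 was lost in 6 of 18. IFIT1 between H929 and MM1S was lost in 4 of 18, without an empty vector replicate of MM1S (adjusted p = 0.0514 and 0.0508) or of OPM2 (0.132 and 0.13).

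The order of the 9 groups differed between members. IFIT3 had a mean level of 636 ± 324 CPM in the H929 knockout, 59.0 ± 3.09 with lenalidomide, 29.2 ± 1.02 and 18.7 ± 6.98 in the IKZF1 and IKZF3 knockouts of OPM2, and 11.2 ± 0.558 in the MM1S knockout. The controls followed with 8.61 ± 0.0674 in H929, 4.85 ± 0.969 in MM1S, 1.53 ± 0.0425 in untreated OPM2 and 1.03 ± 0.215 in OPM2 with empty vector. No neighbours in that order had overlapping libraries. For IFIT5 the order was the H929 knockout (70.2 ± 35.6), the MM1S knockout (27.2 ± 1.42), lenalidomide (25.1 ± 1.16), MM1S controls (15.1 ± 0.785) and the OPM2 IKZF1 knockout (12.6 ± 3.52). Libraries of the last pair overlapped. The OPM2 IKZF3 knockout (6.82 ± 0.422), untreated OPM2 (3.17 ± 0.0669), H929 controls (1.62 ± 0.365) and OPM2 empty vector (0.384 ± 0.231) came after. For IFITM1 the H929 knockout (652 ± 365) and H929 controls (4.90 ± 0.449) led, and lenalidomide (2.21 ± 0.0816) came next. Libraries of the groups after it, MM1S controls (1.36 ± 0.24) and the IKZF3 knockout (1.31 ± 0.162), overlapped, as did those of untreated OPM2 (0.713 ± 0.0972) and the IKZF1 knockout (0.629 ± 0.307). The MM1S knockout (0.328 ± 0.113) and OPM2 empty vector (0.156 ± 0.0914) came last.

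Levels of different members can be compared only per length, for which the authors' deposited log2 FPKM table was used, in which each control group is a single merged column. In the H929 knockout columns IFITM1 was highest at 10.22 and 9.08 log2 FPKM in the authors' table, above IFIT3 at 8.16 and 7.15 and IFIT1 at 7.27 and 5.16. IFITM3 was lowest there at 2.84 and 1.36. In the lenalidomide columns of that table IFIT3 led at 4.46 and 4.35 log2 FPKM, above IFIT5 at 2.59 and 2.68, IFITM1 at 1.63 and 1.76 and IFIT1 at 1.2 in both. In the MM1S knockout columns of the authors' table IFIT5 led at 2.77 and 2.68 log2 FPKM, and it led in the merged MM1S control column at 1.86. The member with the most transcript per length was therefore IFITM1 in H929, IFIT3 in OPM2 and IFIT5 in MM1S in these knockout and lenalidomide columns.

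Genes of the pathway that induces the members were counted from lists arranged by role. Of all genes, 5.94% were called higher in H929, 15.6% in MM1S, 16.2% in each OPM2 knockout and 5.78% with lenalidomide. In either direction 10.5%, 28.3%, 36.3%, 36.9% and 10.4% were called, with the OPM2 IKZF1 knockout before that of IKZF3. Some counts in MM1S and the OPM2 knockouts are near these shares. The 6 interferon receptor chains had 0 called in H929 by edgeR, the tool run on these lists (1, IFNLR1, had an unadjusted p under 0.05), 3 called higher in MM1S, 2 higher and 1 lower in the OPM2 IKZF1 knockout, 3 higher and 1 lower in the IKZF3 knockout, and 1 lower with lenalidomide. The receptor chain IFNAR1 measured -0.18 ± 0.134 in H929 and IL10RB fell by 0.50 on the log2 scale with lenalidomide (adjusted p = 0.048). Of 8 kinases and transcription factors, 6, 3, 2, 6 and 2 were called higher in the same order of comparisons and none lower. In H929 these included IRF7 (3.38 ± 0.193), IRF9 (2.26 ± 0.165) and STAT2 (2.14 ± 0.172). In MM1S, where IFITM1 was not raised, STAT2 rose by 1.11 ± 0.166 and IRF9 by 0.89 ± 0.179. With lenalidomide TYK2 (0.54 ± 0.128) and IRF1 (0.97 ± 0.244) rose.

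The next lists stand against the same shares of all genes called higher, 5.94% in H929, 15.6% to 16.2% in MM1S and the OPM2 knockouts, and 5.78% with lenalidomide. Of 5 feedback inhibitors, 3 were called higher in H929, the deconjugating enzyme USP18 (6.69 ± 0.488), the ubiquitin-like modifier ISG15 (5.90 ± 0.412) and SOCS1 (3.68 ± 0.478). In MM1S 0 were higher and SOCS3, at 0 counts against 5, was called lower. With lenalidomide USP18 alone was called, at 3.03 ± 0.847, and PIAS1 alone in the OPM2 knockouts of IKZF1 (0.65 ± 0.226) and IKZF3 (0.77 ± 0.225). Of 6 genes for RNA sensing, 3 rose in H929, listed as DDX58 (the sensor RIG-I, 5.29 ± 0.369), IFIH1 (the sensor MDA5, 4.52 ± 0.325) and DHX58 (3.58 ± 0.341), and the endosomal receptor TLR3 fell by 1.54. In MM1S 3 of these genes were called higher, TLR3 (1.87 ± 0.43), DHX58 (1.42 ± 0.345) and the nucleic acid sensor ZBP1 (1.07 ± 0.159), and 2 lower, the adaptor MAVS (-0.39 ± 0.126) and IFIH1, at 63.7 CPM against 114. In the OPM2 IKZF1 knockout and with lenalidomide 2 were called higher and 0 lower, IFIH1 (1.53 ± 0.408 and 1.52 ± 0.362) and ZBP1 (0.86 ± 0.165 and 1.13 ± 0.163). In the IKZF3 knockout edgeR called 0, with TLR3 and DDX58 at an unadjusted p under 0.05. Of 21 other interferon-induced antiviral effectors, 20 were called higher in H929, 8 in MM1S, 8 in each OPM2 knockout and 6 with lenalidomide, and 1 was called lower in each OPM2 knockout. Their median log2 fold change was 3.69 in H929, 0.62 in MM1S, 1.30 and 1.68 in the IKZF1 and IKZF3 knockouts and 0.79 with lenalidomide. The members' medians were 6.21, 0.85, 4.89, 4.14 and 2.98 in the same order, and those of all genes tested lay between -0.03 and 0.00. In the OPM2 knockouts they include IFIT1, IFITM2 and IFITM3, fitted against 1, 0 and 0 empty vector counts. In empty vector against untreated OPM2 cells the medians were -2.3 for the members and -1.21 for the other effectors. The medians of members and effectors were not tested against each other. Among the other effectors IFI27 rose by 8.40 ± 0.414 in H929, 4.02 ± 0.586 in the OPM2 IKZF1 knockout and 5.90 ± 0.473 with lenalidomide. The dynamin-like GTPase MX2 rose by 5.29 ± 0.365 in H929 and 3.78 ± 0.478 in MM1S. The mitochondrial protein IFI6 rose in OPM2 by 3.87 ± 0.576, 3.21 ± 0.596 and 3.03 ± 0.439 in the IKZF1 knockout, the IKZF3 knockout and with lenalidomide, and OAS2, which makes oligoadenylates, by 2.64 ± 0.319, 2.49 ± 0.318 and 1.99 ± 0.271. These lists were chosen with earlier results of these data known and are no independent evidence of a direction.

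**Figure D5:**
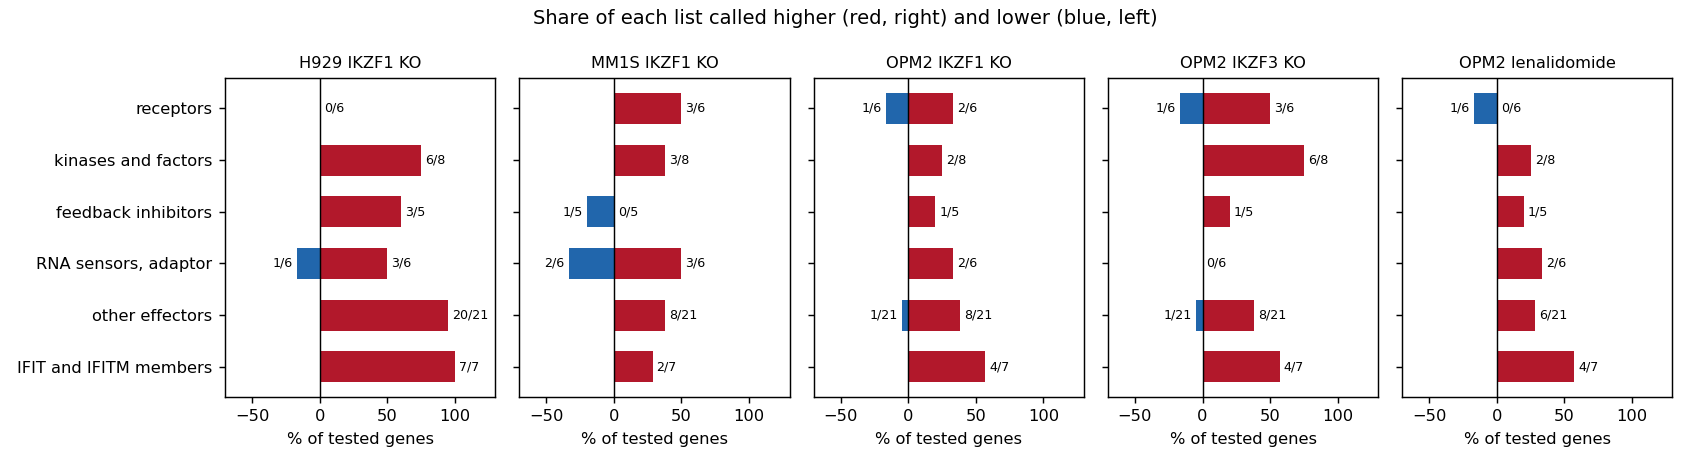
Share of tested genes called higher (right, red) and lower (left, blue) in 5 pathway lists and among the members, for the 5 main comparisons, with counts beside the bars. The members reach 7/7 in H929, 2/7 in MM1S and 4/7 in each OPM2 comparison.

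Of 8 tested genes that flank or overlap the IFIT cluster, 0 were called in H929 by edgeR's quasi-likelihood test, the tool run here, and 0 had an unadjusted p under 0.05, and of 8 beside the IFITM cluster 1 was, the glycosyltransferase B4GALNT4 (1.2 ± 0.284), where 10.5% of all genes were called. In the other 4 main comparisons the counts near the IFIT cluster were 1 higher and 2 lower in MM1S, 2 higher and 1 lower in the OPM2 IKZF1 knockout, and 1 higher and 1 lower both in the IKZF3 knockout and with lenalidomide. Of all genes, 28.3%, 36.3%, 36.9% and 10.4% were called in these comparisons, in that order. Near the IFITM cluster, 5 of 8 were called lower in the OPM2 IKZF1 knockout, among them PSMD13, a proteasome subunit (-0.68 ± 0.165), and 3 of 8 in the IKZF3 knockout. The same list had 3 of 8 called higher in empty vector than in untreated OPM2 cells (35.4% of all genes called). It had 0 called in MM1S and 0 with lenalidomide by edgeR, with 0 and 1 at an unadjusted p under 0.05. LIPA, the lysosomal acid lipase gene, spans chr10:89213572-89414679 in RefSeq on the opposite strand and so overlaps all 4 IFIT members. Without a stated strand setting, its reads and theirs cannot be told apart where they overlap. LIPA measured 120 ± 9.25 CPM in the H929 knockout against 101 ± 0.442 (0.25 ± 0.171, not called) and was called higher in MM1S (0.60 ± 0.171), the OPM2 IKZF1 knockout (0.60 ± 0.173) and with lenalidomide (0.75 ± 0.173). On the log2 scale these changes were smaller than those of IFIT3 in the same comparisons. In MM1S the change of LIPA was near that of IFIT5 (0.85 ± 0.279). In CPM it was larger there than that of IFIT3. LIPA measured 126 ± 1.9 against 82.6 ± 1.28 CPM, and IFIT3 11.2 ± 0.558 against 4.85 ± 0.969. The part of LIPA reads in the IFIT levels was not tested. The gene IFITM3-AS1 likewise overlaps IFITM3.

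Members of a family also share sequence with each other. In windows of 50 bases over a GENCODE transcript of each, 12.2% of IFITM1, 15.7% of IFITM2 and 20.3% of IFITM3 occurred in a transcript of another gene, against 1.03% of IFIT1, 2.62% of IFIT3 and 0% of IFIT2 and IFIT5. Transcripts that overlap a member on its own strand were left out. Reads from such windows could be split or dropped, so the levels of single IFITM members are uncertain. Added together, the 3 IFITM genes rose by 7.15 ± 0.368 in H929 (adjusted p = 1.4e-08), by 3.18 ± 0.835 and 3.55 ± 0.773 in the OPM2 knockouts (0.00996 and 0.00377) and by 1.93 ± 0.518 with lenalidomide (0.0273). In empty vector against untreated OPM2 cells the sum stood at -2.41 ± 0.916 (adjusted p = 0.053), so the rises in the OPM2 knockouts depend on that control. The sum was not tested in the knockouts over untreated cells. In MM1S the sum stood at -0.81 ± 0.51 (adjusted p = 0.268). Among paralogs outside the members, IFIT1B had 22 counts in the H929 knockout against 1, a 31.9-fold ratio (5.16 to 1320), and shared 0.833% of the IFIT1 windows. IFITM10 measured 1.71 ± 0.096 CPM against 1.64 ± 0.242 in H929, and IFITM4P had 0 counts in every group.

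The members did not all keep the same pattern over libraries. Pearson's r of log2 CPM over 18 libraries, which share lines and controls and are given as a description, was highest for IFIT1 with IFIT3 at 0.956 and lowest for IFIT2 with IFIT5 at 0.413. Over the 14 libraries without H929 it was 0.947 for IFIT1 with IFIT3, 0.556 for IFIT5 with IFITM1 and -0.14 for IFIT2 with IFITM2. Members and names that begin with LOC or LINC left aside, the 5 genes with the pattern nearest to IFIT1 over 18 libraries were IFI6 (r = 0.973), RSAD2 (0.944), TAP1 (0.941), SNX6 (0.917) and SNX2 (0.917). Those nearest to IFIT5 were NAT1 (0.944), CBFA2T2 (0.917), DDX60 (0.908), SAMHD1 (0.907) and EPSTI1 (0.891). Among those nearest to IFITM1 were IFI44L (0.960), ISG15 (0.959), TTYH1 (0.952) and MYD88 (0.952). Without the H929 libraries r fell to 0.358 to 0.572 for these 4 genes nearest to IFITM1, and lay at 0.775 to 0.924 for those of IFIT1 and 0.855 to 0.946 for those of IFIT5.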

How the data were processed

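The authors deposited raw counts per Entrez gene for 18 libraries and a table of log2 FPKM values in which each control group is merged into a single column. The submitters' processing notes name Subread, featureCounts, limma and GRCh38 (hg38); versions, settings and strand are not given in the sources used here. Per the labels' protocols, an RNeasy Plus kit gave the RNA and a TruSeq RNA kit the libraries. Of 28395 genes, 385 without a symbol (0.0122% to 0.0276% of counts) were left out.

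By their headers, knockout columns of the count table match a group but no single sample, and are called a and b. By value, replicates 1 and 2 of the authors' log2 FPKM table go with a and b in order. IFIT1 had 7.27 and 5.16 there in H929, 0.05 and -0.78 in MM1S and 0.25 and -0.49 in the OPM2 IKZF1 knockout. IFIT3 had 2.34 and 3.07 in the IKZF3 knockout. Lenalidomide libraries lettered A and B are replicates 1 and 2. Genes were filtered with filterByExpr, scaled by TMM and fitted in 1 model with edgeR 4.0.16 (R 4.3.3), robust quasi-likelihood, with 9 residual degrees of freedom; the code was tested on simulated data. That test gave each adjusted p with no tool named beside it, and each SE comes from the fold change and F statistic. No exact permutation test was run, since 2 libraries against 2 reach p = 0.333 at the lowest. A group at 0 counts was set at a floor of 3 counts over the group, and 1 to 3 counts were given a ratio with a 95% interval; both cover counting error only.

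Named genes are the members, their paralogs, the 5 nearest protein-coding genes on each side of a cluster, at most 4 genes per pathway list and comparison with the smallest p, the 5 closest patterns among other genes over log2 CPM (prior count 2), names that begin with LOC or LINC passed over, and the targeted genes. The text gives values for some of the list genes so named, chosen after their values were seen; 1 gene is not reported here, but stays in the counts over lists. Members and lists were chosen with earlier results of these data known. Alternatives were other scalings, filters, tools (DESeq2 1.42.0, limma-voom 3.58.1), samples and controls, the summed IFITM genes, and each library left out. The direct comparison of lenalidomide with the knockouts, untreated cells as the OPM2 control in differences between lines, and the patterns without H929 were added after seeing the data. Promoter sequences come from RefSeq (GRCh38.p14) and transcripts from GENCODE; transcripts at a member's own locus were left out of the shared windows, and this and the motif search were chosen after seeing the data; no genome sequence was used.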

Additional observations from a re-analysis of the deposited data

Results flagged for a closer look

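The response of single members to loss of IKZF1 differed between lines by a test of the difference itself, in log2 fold change of the knockout over its empty vector. H929 minus MM1S gave 4.29 for IFIT1, 5.0 for IFIT3, 4.57 for IFIT5, 9.05 for IFITM1 and 10.6 for IFITM2, the last fitted with 1 count in the H929 controls and so dependent on the prior count. MM1S minus OPM2 gave -3.56 for IFIT3, -4.03 for IFIT5 and -4.07 for IFITM1, the last with 5 counts in OPM2 empty vector cells. H929 minus OPM2 gave 4.98 for IFITM1, the only 1 of 7 called (adjusted p = 0.0451), and that call was lost with only the groups compared. Of all genes, 15.9% were called for H929 minus MM1S, 20.8% for MM1S minus OPM2 and 12.7% for H929 minus OPM2. Against untreated OPM2 cells, MM1S minus OPM2 gave -3.03 for IFIT3 and was not called for IFIT5 (-1.14) or IFITM1 (-1.78), and H929 minus OPM2 gave 7.28 for IFITM1. For IFITM1 both H929 knockout libraries lay above their controls and both MM1S knockout libraries below theirs.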

How the results depend on the processing

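Other scalings (DESeq2 size factors, upper quartile) and a stricter filter left each count of called members within 1.5 times of the reported one. Without a filter on low counts, 4 members were called in MM1S, 7 in each OPM2 knockout, 3 for empty vector against untreated, 2 between the knockouts, 3 for H929 minus OPM2, 5 for MM1S minus OPM2 and 1 for lenalidomide minus either knockout. DESeq2's Wald test called 4 in MM1S, 7 in the OPM2 IKZF1 knockout, 3 for empty vector against untreated, 3 for H929 minus OPM2, 5 for MM1S minus OPM2 and 1 for lenalidomide minus the IKZF1 knockout. limma-voom called 1 in MM1S, 2 for H929 against MM1S controls and 3 for MM1S against OPM2 controls. With only the groups compared, 4 were called in MM1S, 0 for empty vector against untreated (0 of 12399 genes, against 5140 of 14522), 3 for H929 minus MM1S and 0 for H929 minus OPM2, which was also 0 with the IFITM genes added together. In that fit 113 genes were called in the OPM2 IKZF1 knockout and 54 in the IKZF3 knockout, against 5276 and 5357. The cause of these differences was not tested. With untreated cells as control, 1 member was called in the IKZF3 knockout and IFITM1 stood at -0.225 in the IKZF1 knockout. With untreated cells as the OPM2 control, chosen after seeing the data, 3 were called for H929 minus OPM2 and 1 for MM1S minus OPM2. With untreated cells as control of both effects, chosen after seeing the data, 2 were called for lenalidomide minus the IKZF3 knockout. IFIT5 then turned to 0.99 and IFITM1 to 1.82 against the IKZF1 knockout, and to 1.88 and 0.73 against the IKZF3 knockout.

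Empty vector and untreated OPM2 libraries share replicate numbers, but the labels tie them to no common batch and 2 pairs are too few to show one (correlation of deviations 0.203 over 12399 genes). With the replicate block, fitted on these libraries alone, 2 members were called (IFIT5 at -2.99 and IFITM1 at -2.23), and 1705 genes. Without the block, the fit of the same 2 groups called no member and none of the 12399 genes. The 1 member called in the main results comes from the fit of all 18 libraries. For the other comparisons no paired analysis was run. Headers of the knockout columns carry no replicate numbers of the labels, the lenalidomide libraries are lettered, and lines are not paired.

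With 1 library left out in turn, the count of called members was 7 to 7 in H929, 0 to 4 in MM1S, 2 to 7 in the OPM2 IKZF1 knockout, 2 to 6 in the IKZF3 knockout, 3 to 5 with lenalidomide, 1 to 3 for empty vector against untreated and 0 to 1 between the knockouts. It was 4 to 5 for H929 minus MM1S, 0 to 3 for H929 minus OPM2, 2 to 4 for MM1S minus OPM2, and 0 for lenalidomide minus either knockout. Between controls it was 2 to 6 (H929 and MM1S), 2 to 5 (H929 and OPM2) and 1 to 5 (MM1S and OPM2). Counts over all 14522 genes moved too, from 682 to 3321 in H929, 2314 to 6310 in MM1S, 3057 to 7967 and 2535 to 7996 in the OPM2 IKZF1 and IKZF3 knockouts, 579 to 3266 with lenalidomide, 2135 to 7827 for empty vector against untreated and 119 to 1338 between the knockouts. They ran from 1429 to 4315 for H929 minus MM1S, 475 to 6821 for H929 minus OPM2, 1364 to 7000 for MM1S minus OPM2, and 10 to 6568 and 74 to 6711 for lenalidomide minus the IKZF1 and IKZF3 knockouts. Between controls they ran from 7747 to 10598, 8059 to 10341 and 8448 to 10646 in the same order. Signs turned for IFITM2 in MM1S (-0.458 to 0.385), IFIT2 (-1.52 to 3.74) and IFIT5 (-0.37 to 0.977) for H929 minus OPM2, and IFITM1 for lenalidomide minus the IKZF1 knockout (-1.1 to 0.132). A group with a left-out library has 1 left, which is assumed to vary like the others. Members with under 10 counts in a group, mainly IFIT2, IFITM2 and IFITM3, are limited by depth. The same holds in OPM2 empty vector cells for IFIT1 (1 count) and IFITM1 (5 counts), and in MM1S knockout cells for IFITM1 (9 counts).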
